A study of Mus musculus with 24 samples.

Results

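Wild-type (WT) mouse eggs at metaphase of the second meiotic division (MII) were compared with WT oocytes in the first meiotic division (MI), gene by gene. Levels are in FPKM, by name fragments per kilobase of transcript relative to mapped fragments. How the deposited values were scaled across libraries is not described in the labels. Genes were taken where the mean level was 1 FPKM or more in either group, which held for 7068 of the 23235 genes listed. Of these, 4974 reached 1 FPKM in both groups, 75 only in MII eggs and 2019 only in MI oocytes. The higher group mean lay within 0.05 FPKM of this limit for 112 genes just inside it and for 104 genes just outside it.

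Both groups came from C57BL/6 mice at postnatal day 21, per the labels. MII eggs were collected after 16 h of culture and MI oocytes after 8 h, each with 2 libraries. Oocytes of Cnot6l-/- mice and of a group labelled Btg4-/- were cultured for the same times and served for a comparison of the same step. No transgene or Cre driver is named in the labels, and neither knockout allele is described. The whole series has 24 libraries of 3 genotypes at 4 stages, from the germinal vesicle stage (GV) to the zygote. For the GV oocytes the labels give 48 h after the hormone PMSG, and for the zygotes 24 h after the hormone hCG, in place of a culture time. RNA came from 100 oocytes per the extraction protocol, whereas the text on the series speaks of 2 oocytes.

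A fully grown mouse oocyte does not transcribe. Between the resumption of meiosis and fertilization its transcripts come from a store laid down during growth, and the levels of messages change through storage, lengthening of the poly(A) tail, tail shortening and decay. The CCR4-NOT complex removes poly(A) tails, with CNOT6L as one of its nucleases and BTG4 as an adaptor that brings messages to it. Messages with a cytoplasmic polyadenylation element (CPE) near their end can receive longer tails during maturation and are then translated. Smart-Seq2, the method used here, copies RNA from the poly(A) tail, so the length of the tail and the amount of message cannot be told apart in these values. Likewise, in RNA pooled from many oocytes, fewer oocytes and less RNA per oocyte cannot be told apart.

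Levels are FPKM as the authors deposited them. Changes are MII minus MI on the log2(FPKM + 1) scale with the standard error (SE), tested with limma. Adjusted p-values are over the 10884 genes with a mean of 1 FPKM or more in at least 1 of the 12 groups of the series, and genes under 0.05 are called. Such p-values reflect the variation among these libraries alone, since the labels do not say whether the libraries of a group came from separate animals. The summed FPKM was 94790.9 and 103178.3 in the MII libraries, against 183621.5 and 134864.6 in the MI libraries, a ratio of 0.622 (exact two-sided permutation test over 4 libraries, p = 0.333, the smallest it can give). The deposited values therefore do not share a fixed total, and calls are also given after median-ratio scaling, which levels the libraries on the 3677 genes that exceed 1 FPKM in each of the 24. A call after scaling is thus made relative to those genes.

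Markers of the oocyte were present in all 4 libraries, with 12 of 12 at 1 FPKM or more. Markers of cumulus and granulosa cells, which surround the oocyte, summed to 6.01 and 6.19 FPKM over 21 genes in MII eggs, against 9.83 and 8.07 FPKM in MI oocytes, with 7 to 9 genes listed at 0. Sperm markers summed to 5.84 and 8.4 FPKM over 10 genes in MII eggs, against 23.6 and 18 FPKM in MI oocytes. Blood and immune markers stayed between 0.57 and 1.48 FPKM over 9 genes in each library. The summed oocyte markers themselves were 1849.44 and 1606.93 FPKM in MII eggs, against 7748.24 and 5309.39 FPKM in MI oocytes, so the 2 groups did not overlap.

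The step was mainly one of falling transcripts, and few were called higher as deposited. In MII eggs 3203 genes (45.3% of the 7068) were called lower than in MI oocytes and 36 (0.509%) higher. Among all 10884 genes tested the shares were 32.6% lower and 0.34% higher. Of the 4974 genes at 1 FPKM or more in both groups, 1767 were called lower and 26 higher. The other calls were of genes that passed the limit only through the group where their mean was higher. The median log2 change was -0.74 over the 7068 genes, and the fall was at least 1 log2 unit for 2319 of the genes called, 2 for 576, 3 for 103 and 4 for 14. After scaling 2183 genes (30.9%) were called lower and 508 (7.19%) higher, with a median of -0.32, against 25.1% lower and 5.64% higher among the 9823 genes then tested. In both settings 2170 genes were lower and 36 higher, and no call changed sign. Without the first of the MI libraries the calls lower fell to 1797, and the calls higher ranged from 11 to 34 when each library was left out in turn.

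**Figure D1:**
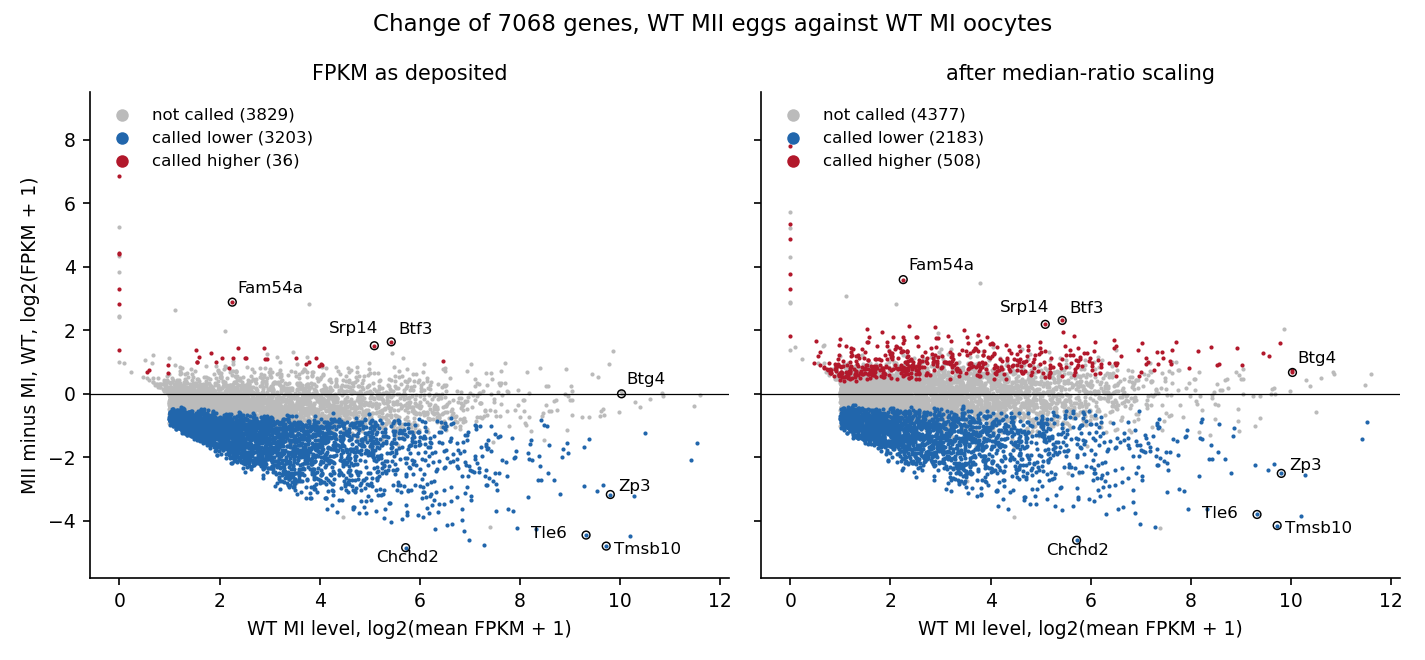
Change of 7068 genes (MII minus MI, log2 scale) against the WT MI level, as deposited on the left and after median-ratio scaling on the right, 1 point a gene. Genes called lower number 3203 on the left and 2183 on the right, and genes called higher 36 and 508.

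Leaving out small RNA genes, predicted loci and RIKEN clones, the transcripts that fell most in WT eggs came from genes of mitochondria, the cytoskeleton, calcium signalling and the maternal store. Chchd2, a protein of the mitochondrial intermembrane space (chr5:130357032-130363340, minus strand, mm9), stood at 0.99 and 0.66 FPKM in MII eggs, against 57.39 and 46.02 FPKM in MI oocytes. Its mean was 62.7-fold lower in MII eggs (log2 change -4.85 ± 0.40 SE, limma adjusted p = 8.62e-07). Tmsb10, a thymosin that binds actin monomers, had 47.27 and 17.41 FPKM in MII eggs, against 1016.5 and 677.11 FPKM in MI oocytes (-4.80 ± 0.45, adjusted p = 1.39e-06). The lowest MI library lay far above the highest MII library for both genes. Tubb2a, a beta-tubulin, had 5.43 and 4.02 FPKM in MII eggs, against 184.07 and 126.73 FPKM in MI oocytes (-4.76 ± 0.46, adjusted p = 1.76e-06). Cox7c, a subunit of cytochrome c oxidase, had 6.17 and 2.49 FPKM in MII eggs, against 158.13 and 93.83 FPKM in MI oocytes (-4.62 ± 0.50, adjusted p = 4.77e-06). Calm2, a calmodulin gene, had 7.35 and 3.21 FPKM in MII eggs, against 128.15 and 106.74 FPKM in MI oocytes (-4.31 ± 0.70, adjusted p = 0.000167). The libraries of the 2 groups did not overlap for any of these 5 genes, and the first MII library was the higher of the pair in each.

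Next in order came genes of nuclear import, lipid synthesis and poly(A) binding. Kpna2, an importin that carries proteins into the nucleus, had 12.92 and 11.3 FPKM in MII eggs, against 264.8 and 228.65 FPKM in MI oocytes (-4.24 ± 0.50, adjusted p = 8.39e-06). Pgs1, which makes a precursor of the mitochondrial lipid cardiolipin, had 5.03 and 4.4 FPKM in MII eggs, against 115.92 and 83.2 FPKM in MI oocytes (-4.12 ± 0.42, adjusted p = 3.02e-06). Paip2, an inhibitor of poly(A)-binding protein, had 6.39 and 1.34 FPKM in MII eggs, against 86.15 and 71 FPKM in MI oocytes (-4.25 ± 0.59, adjusted p = 4.42e-05). No MII library reached the level of an MI library for these 3 messages either. The others among the 12 that fell most with non-overlapping libraries were Tle6, Hint1, a nucleotide hydrolase, Ninj2 and the pseudogene Speer5-ps1, with log2 changes from -4.45 to -3.96. Each of these 12 genes was also called lower after scaling and with any 1 of the 4 libraries left out.

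Genes that are known for the oocyte itself fell, too, but not as a block. Of 50 oocyte-specific and maternal-effect genes 30 were lower in MII eggs (60%, median log2 change -1.55), against 45.3% of all 7068 genes. After scaling 25 were lower (median -0.93), against 30.9% of all 7068 genes. Tle6, a member of the subcortical maternal complex that embryos need for their first divisions (chr10:81053650-81063645, minus strand), had 36.46 and 21.38 FPKM in MII eggs, against 734.72 and 545.68 FPKM in MI oocytes (-4.45 ± 0.51, adjusted p = 7.43e-06). Padi6, another protein of the egg cortex, had 167.14 and 103.08 FPKM in MII eggs, against 1413.92 and 1071.57 FPKM in MI oocytes (-3.22 ± 0.44, adjusted p = 3.93e-05). Cd9, the tetraspanin of the egg surface that sperm-egg fusion requires, had 9.81 and 2.49 FPKM in MII eggs, against 98.47 and 65.3 FPKM in MI oocytes (-3.72 ± 0.48, adjusted p = 2.24e-05). All 3 were lower in each MII library than in each MI library.

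The zona pellucida genes, which encode the coat of the egg, moved alike. Zp3 had 128.96 and 68.15 FPKM in MII eggs, against 1161.81 and 630.98 FPKM in MI oocytes (-3.18 ± 0.37, adjusted p = 7.43e-06). Zp2 and Zp1, named after their values were seen, changed by -2.90 ± 0.48 (adjusted p = 0.000182) and -2.72 ± 0.38 (adjusted p = 4.54e-05). At the other end of the list stood Oosp1, a secreted protein of the oocyte, with 1613.28 and 1680.06 FPKM in MII eggs, against 1006.93 and 748.69 FPKM in MI oocytes. Its change of 0.92 ± 0.39 was not called (adjusted p = 0.0818), and after scaling it was called higher at 1.60. Rfpl4 likewise had 0.62 ± 0.37 (adjusted p = 0.23), and 1.29 after scaling, where it was called. Among the abundant oocyte messages, some thus lost most of their signal while others had higher values in MII eggs.

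**Figure D2:**
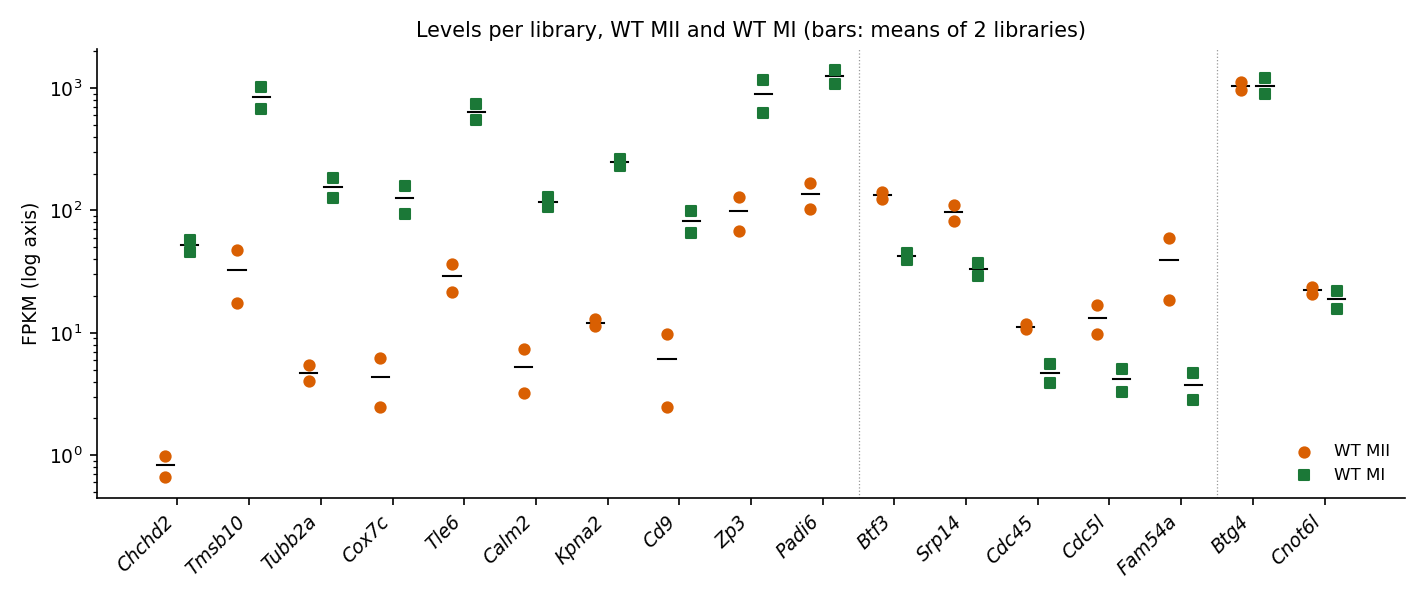
FPKM on a log axis of 17 genes in the 2 WT MII libraries (circles) and the 2 WT MI libraries (squares), with bars at the mean. The first 10 genes were called lower in MII eggs, the next 5 higher, and the last 2, Btg4 and Cnot6l, were not called; no library overlaps in the first 15 genes.

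Genes that drive meiosis and build the spindle fell about as often as other genes. Of 66 meiotic cell cycle regulators 35 (53%, median -0.92) were lower, and 20 after scaling, near the shares over all 7068 genes. Mapk3, the kinase ERK1, had 10.83 and 6.34 FPKM in MII eggs, against 130.28 and 98.73 FPKM in MI oocytes (-3.62 ± 0.31, adjusted p = 9.29e-07). Mos, the kinase that acts upstream of it and holds the egg at MII, had 140.13 and 211.27 FPKM in MII eggs, against 327.79 and 250.18 FPKM in MI oocytes, and was not called (-0.73 ± 0.50, adjusted p = 0.297). The 2 highest of the list were Cks1b and Cks2, small proteins that bind cyclin-dependent kinases, at 0.93 ± 0.37 (adjusted p = 0.0684) and 0.80 ± 0.43 (adjusted p = 0.177), and both were called higher after scaling. Of 66 spindle, kinesin and kinetochore genes 30 (45.5%, median -0.77) were lower. Kif2c, a kinesin that shortens microtubules, had 6.64 and 8.07 FPKM in MII eggs, against 84.98 and 63.55 FPKM in MI oocytes (-3.16 ± 0.34, adjusted p = 4.4e-06).

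All 12 tubulin genes at 1 FPKM or more in either group, out of 17 in the table, were called lower in MII eggs (median -1.96). After scaling 7 of 12 were called lower (median -1.45). The shares over all 7068 genes were 45.3% as deposited and 30.9% after scaling. Tuba1b, an alpha-tubulin, had 0.41 and 0.29 FPKM in MII eggs, against 11.25 and 7.55 FPKM in MI oocytes (-2.92 ± 0.24, adjusted p = 8.62e-07). Its mean reached 1 FPKM only in MI oocytes, so it is among the 12 through the group where it was higher. The smallest change was that of the gamma-tubulin Tubg1 (-1.15 ± 0.32, adjusted p = 0.0101), which was not called without the first MI library (adjusted p = 0.148), without the first MII library (adjusted p = 0.105) or after scaling (adjusted p = 0.348). Tubulin, ribosomal protein and histone genes have close copies in the genome, so the level of any one member is uncertain if reads fell on a copy.

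Transcripts for the energy supply were called lower more often than the 45.3% of all 7068 genes. Of 78 nuclear-encoded genes of oxidative phosphorylation 58 (74.4%, median -1.57) were lower, and 48 after scaling (median -1.07), when the share of all genes was 30.9%. Ndufa7, a subunit of complex I, had 3.56 and 2.41 FPKM in MII eggs, against 62.64 and 42.32 FPKM in MI oocytes (-3.74 ± 0.34, adjusted p = 1.11e-06). Not every subunit fell: the complex IV genes Cox6b2 and Cox5a had changes of 0.72 ± 0.40 (adjusted p = 0.188) and 0.59 ± 0.43 (adjusted p = 0.333), and both were called higher after scaling. Of 19 genes of mitochondrial import 13 (68.4%, median -1.29) were lower, such as Tomm6 of the outer membrane at 2.92 FPKM in both MII libraries, against 47.46 and 35.81 FPKM in MI oocytes (-3.43 ± 0.45, adjusted p = 2.64e-05). Mitochondrial ribosomal proteins were lower in 38 of 69 cases (55.1%, median -0.92) and higher in 1, Mrpl53.

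Of 84 cytosolic ribosomal protein genes 58 (69%, median -1.41) were lower, and 35 after scaling (median -0.92). The shares of all 7068 genes were 45.3% and 30.9%. Rpl5 had 14.8 and 2.82 FPKM in MII eggs, against 84.15 and 60.92 FPKM in MI oocytes (-3.22 ± 0.56, adjusted p = 0.000309). The lowest change of the list, that of Rps27, rested on values of 0.07 and 0.61 FPKM in MII eggs, against 31.32 and 10.7 FPKM in MI oocytes, and was not called (-3.89 ± 1.47, adjusted p = 0.0513). At the upper end Rps27l had 370.45 and 430.25 FPKM in MII eggs, against 232.65 and 180.06 FPKM in MI oocytes (0.96 ± 0.50, adjusted p = 0.155), and it was called higher after scaling at 1.63.

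The remaining lists ranged from above the share of all genes to below it. Aminoacyl-tRNA synthetases, which charge tRNAs, were lower in 10 of 15 cases (66.7%), for example Rars (-2.74 ± 0.33, adjusted p = 1.1e-05), chaperones in 16 of 30, led by Hspa8 (-3.46 ± 0.27, adjusted p = 7.18e-07), proteasome subunits in 19 of 39, led by Psmb7 (-3.36 ± 0.41, adjusted p = 1.13e-05), and translation factors in 26 of 54, led by Eif3g (-2.78 ± 0.27, adjusted p = 1.76e-06). Genes of DNA replication and repair were lower in 21 of 43 cases and higher in 1, Cdc45. Ubiquitin-conjugating enzymes were lower in 11 of 28 cases and splicing factors in 15 of 46 (32.6%), and 9 splicing factors were called higher after scaling. Of 7 replication-dependent histone genes at 1 FPKM or more 5 (71.4%) were lower, out of 68 in the table. Of the short lists, stress and immediate early genes were lower in 4 of 9 cases, genes of zygotic genome activation in 2 of 3 and sperm markers in 2 of 2, while the 1 cumulus marker at this level, Cyp19a1, was not called.

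**Figure D3:**
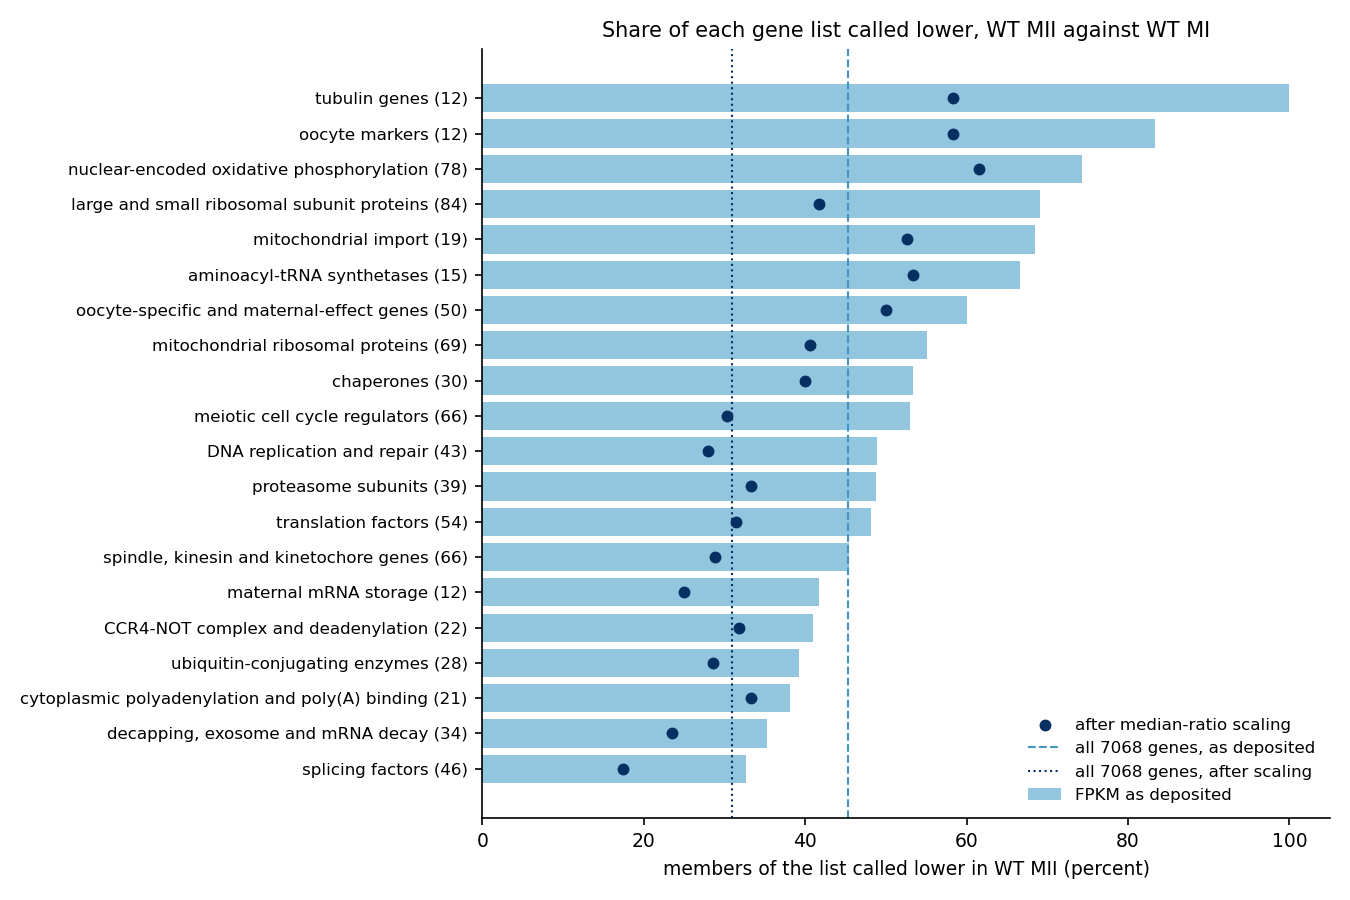
Percent of the members of 20 gene lists (small RNA genes and the short lists are not drawn) called lower in WT MII eggs against WT MI oocytes, as deposited (bars) and after scaling (points), with the number of members in parentheses. Dashed and dotted lines mark the 45.3% and 30.9% of all 7068 genes; tubulin genes, oocyte markers and oxidative phosphorylation lie highest and splicing factors lowest.

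The machinery that shortens tails and degrades messages was called lower about as often as all genes. Of 22 genes of the CCR4-NOT complex and deadenylation 9 (40.9%, median -0.66) were lower. Btg4 had 956.73 and 1113.54 FPKM in MII eggs, against 1199.38 and 894.19 FPKM in MI oocytes, so the groups overlapped (-0.00 ± 0.32, adjusted p = 1; 0.67 after scaling, adjusted p = 0.0202, a call). Cnot6l had 23.58 and 20.78 FPKM in MII eggs, against 22.02 and 15.79 FPKM in MI oocytes (0.24 ± 0.65, adjusted p = 0.836). The BTG/Tob relatives Tob2 and Btg2 were the lowest of the list, with Tob2 at 1.42 and 1.77 FPKM in MII eggs, against 7.21 and 5.49 FPKM in MI oocytes (-1.50 ± 0.29, adjusted p = 0.000785). Decapping, exosome and decay genes were lower in 12 of 34 cases (35.3%), led by Lsm4 of the LSm ring (-3.10 ± 0.48, adjusted p = 0.000104).

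Genes of cytoplasmic polyadenylation and poly(A) binding and genes that store messages were lower in 8 of 21 (38.1%) and 5 of 12 cases (41.7%). Pabpc1l, the embryonic poly(A)-binding protein, had 1.25 and 0.84 FPKM in MII eggs, against 28.68 and 24.67 FPKM in MI oocytes (-3.76 ± 0.29, adjusted p = 6.18e-07). Igf2bp2, which binds and stabilises messages, had 6.58 and 8.25 FPKM in MII eggs, against 34.84 and 25.63 FPKM in MI oocytes (-1.88 ± 0.31, adjusted p = 0.000198). Lsm14a, an RNA-binding protein of storage particles, changed by 0.33 ± 0.48 (adjusted p = 0.666), and scaling made this a call (adjusted p = 0.0164).

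Few transcripts were called higher in MII eggs as deposited, 36 of the 7068 genes (0.509%), against 508 (7.19%) after scaling. Btf3, a subunit of the complex that binds nascent polypeptides at the ribosome (chr13:99079852-99086922, minus strand), had 124.57 and 141.14 FPKM in MII eggs, against 44.67 and 39.68 FPKM in MI oocytes (1.63 ± 0.34, adjusted p = 0.00129). Srp14, a protein of the signal recognition particle, had 82.73 and 110.4 FPKM in MII eggs, against 37.01 and 29.29 FPKM in MI oocytes (1.51 ± 0.35, adjusted p = 0.00335). Cdc45, a component of the replicative helicase, had 10.82 and 11.7 FPKM in MII eggs, against 5.6 and 3.88 FPKM in MI oocytes (1.11 ± 0.23, adjusted p = 0.00118). These 3 genes were called higher with any 1 of the 4 libraries left out, and their MII and MI libraries did not overlap.

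Other rises lost their call when 1 library was left out, while the change stayed positive. Fam54a, of the mitochondrial fission regulator family, had 59.64 and 18.59 FPKM in MII eggs, against 4.74 and 2.81 FPKM in MI oocytes (2.88 ± 0.71, adjusted p = 0.0048; 2.07 and adjusted p = 0.0888 without the first MII library). Cdc5l, a splicing factor, had 9.76 and 16.79 FPKM in MII eggs, against 5.08 and 3.26 FPKM in MI oocytes (1.44 ± 0.32, adjusted p = 0.00242; 1.08 and adjusted p = 0.0502 without the second MII library). Nsmce1, of the SMC5/6 complex, had 15.13 and 15.81 FPKM in MII eggs, against 7.43 and 6.02 FPKM in MI oocytes (1.10 ± 0.29, adjusted p = 0.00767; 0.97 and adjusted p = 0.0582 without the second MI library). Rsc1a1, Pigx, Spag7, Mtcp1, Mrpl53 and Pcgf1 had log2 changes between 1.02 and 1.43 and likewise lost their calls when at least 1 library was left out, Mrpl53 for example with 0.43 and an adjusted p of 0.517 without the second MII library. After scaling, Eny2, Rgs2, Srgn and Snrpd1 joined the 12 highest genes, with log2 changes of 2.00, 1.95, 1.81 and 1.81, while their changes as deposited were not called (adjusted p from 0.0503 to 0.165).

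Of the 36 genes called higher, 0.509% of all 7068, 6 were small RNA genes, out of 28 small RNA genes at 1 FPKM or more. All 6 were listed at 0 in both MI libraries, so they passed the limit only through MII eggs and could not be called lower. Among them 4 had a value in 1 MII library only. The snoRNA Snora34 had 22.11 and 18.93 FPKM and the miRNA gene Mir3096b 97.55 and 135.33 FPKM in MII eggs, against 0 in MI oocytes. Snord49b was listed at 0 and 446.96 FPKM and Snord16a at 97.55 and 0 FPKM in the MII libraries. Mir3096b and Snord16a are both 91 bases long and had the same FPKM in the first MII library. These 6 transcripts are 63 to 118 bases long. The 1 small RNA gene called lower, the miRNA gene Mir5133 of 77 bases, was listed at 0 in both MII libraries, against 287.79 and 303.83 FPKM in MI oocytes (limma adjusted p = 0.011), and it was also listed at 0 in WT GV oocytes and zygotes. No fold is given against a group listed at 0.

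Sequence features of the transcript ends were compared between the genes that fell and the rest. The 3′ untranslated region (3′ UTR) was taken from the gencode vM1 annotation of mm9, the longest per gene, for 6678 of the 7068 genes. A CPE was counted where TTTTAT or TTTTAAT stood in the last 150 bases on the transcript strand, and a polyadenylation signal where AATAAA or ATTAAA did; the motifs can overlap. To show what was counted, 30 bases are given for genes of both directions, in mm9 on the strand of the transcript, with the CPE and the signal in capitals.
Srp14: aatagTTTTATTAAAagttgtgttatccta
Cdc45: TTTTAATAAAatgtttgatgTTTTATcccc
Btf3: ttggaaagggttAATAAAattctttgccta
Calm2: attttcTTTTATtgttacttgctttttaaa
Chchd2: tgagttaaaaaaAATAAAttggttattctg
Cox7c: gaaaaaattgtaAATAAActaatgacataa
Cd9: aatttgatacatAATAAAagattataacag

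Srp14 (chr2:118301586-118301615, minus strand) and Cdc45 (chr16:18780540-18780569, minus strand), both higher in MII eggs, hold a CPE. In Srp14 it overlaps the ATTAAA signal, and in Cdc45, which has a pair of them, the first overlaps the AATAAA signal. Btf3 (chr13:99079855-99079884, minus strand) was higher with a signal and no CPE in this window. Chchd2 (chr5:130357032-130357061, minus strand), Cox7c (chr13:86184424-86184453, minus strand) and Cd9 (chr6:125410286-125410315, minus strand), all lower in MII eggs, show a signal and no CPE. Calm2 (chr17:87832857-87832886, minus strand) was lower and holds a CPE, so the motif did not separate single genes. Of the 12 genes that fell most 1 of 11 with a 3′ UTR held a CPE, against 3 of 11 of the 12 that were highest and 2 of 11 of the 12 highest after scaling.

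Across genes the share with a CPE was 18.9% among 2071 genes lower in both settings, 35.4% among 486 genes higher after scaling and 30.6% among the 4121 others. It was 21.6% over all 19294 annotated 3′ UTRs. Among genes of 10 FPKM or more in MI oocytes the shares were 21.7%, 38.5% and 35.1% in the same order. Base composition moved with it: the median GC content was 46.5% in the genes lower in both settings, 41.2% in those higher after scaling and 42.4% in the others. Among 3′ UTRs of 40 to 45% GC, the CPE shares were 25.5%, 29.9% and 32.2%, a smaller difference. Genes lower in both settings also had shorter 3′ UTRs, with a median of 852 bases, against 1071.5 bases in those higher after scaling and 1170.0 bases in the others. This order depended on the level: in genes of 10 FPKM or more in MI oocytes the medians were 685, 576 and 888 bases. There the genes higher after scaling had the shortest 3′ UTRs. Over genes of any level, the polyadenylation signal stood in 77.1%, 86.4% and 84.9% of the 3′ UTRs in the same order. These are descriptions across genes, without a test, and the part of base composition in the CPE shares was not tested beyond the GC band.

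**Figure D4:**
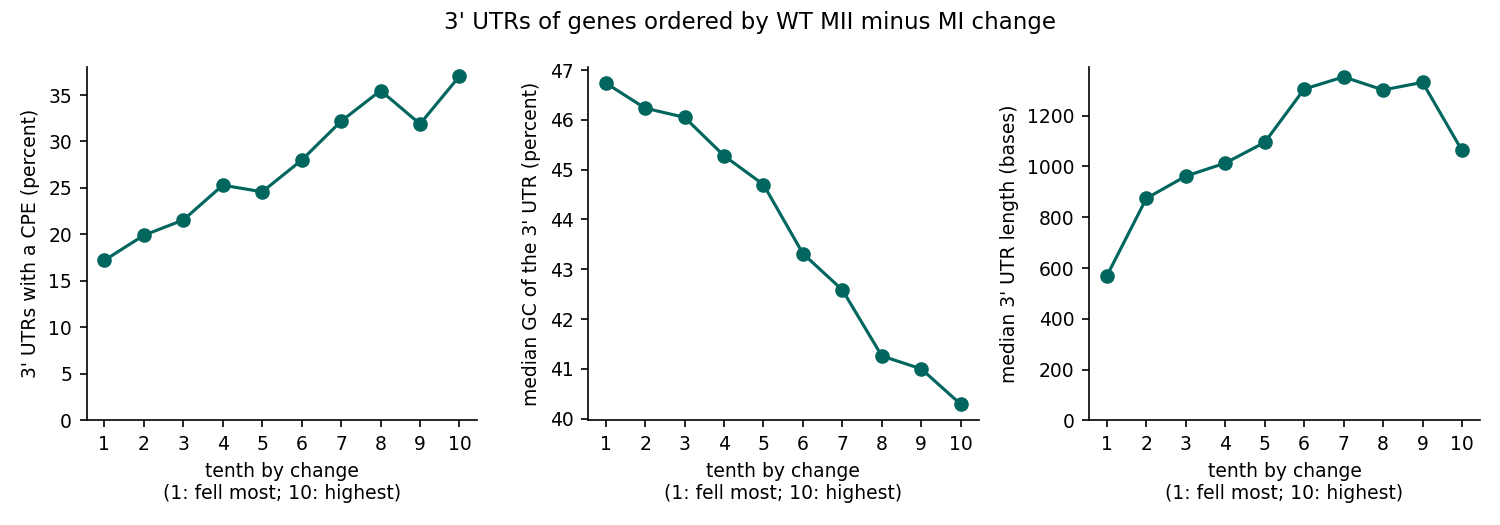
Genes with a 3′ UTR in 10 equal groups by their WT MII minus MI change, with the percent of 3′ UTRs that hold a CPE, the median GC percent (axis not starting at 0) and the median length in bases. The CPE share is 17.2% in the group that fell most and 37% in the highest group, while GC content is 46.7% and 40.3%. The median length is 569.5 and 1063.0 bases in the same order, and is longest in group 7, at 1353.0 bases. The median WT MI level is 15.3 FPKM in the group that fell most and 4.6 FPKM in the highest group.

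Over 4 stages, the genes that fell at this step followed more than one course in WT. Tle6 averaged 496.9 FPKM at GV, 640.2 at MI, 28.9 at MII and 20 in zygotes, and its change between GV and MI was not called (limma adjusted p = 0.53; after scaling adjusted p = 0.0399, higher at MI). Tubb2a averaged 78.9 FPKM at GV and 155.4 at MI, and Pgs1 68.6 at GV and 99.6 at MI, again without a call between these stages as deposited. Calm2, by contrast, averaged 686.4 FPKM at GV, 117.4 at MI, 5.28 at MII and 24.3 in zygotes, so that it was lower at each of the first 2 steps (limma adjusted p = 0.00505 for the first, or 0.0902 after scaling). Some genes that were higher in MII eggs had been far higher at GV. Btf3 averaged 558.3 FPKM at GV, 42.2 at MI, 132.9 at MII and 111 in zygotes, and Srp14 295.0, 33.2, 96.6 and 61.1 FPKM. Cdc5l and Fam54a, taken up at the end, were likewise higher at GV than at MII. The MI libraries enter both steps, so the fall to MI and the rise after it share them.

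The same step was measured in Cnot6l-/- oocytes and in the group labelled Btg4-/-. The Cnot6l transcript was at 3.4 to 7.26 FPKM in the Cnot6l-/- libraries of both stages, against 15.79 to 23.58 FPKM in WT. The Btg4 transcript was at 1111.11 to 1613.02 FPKM in the libraries labelled Btg4-/-, against 894.19 to 1199.38 FPKM in WT, so its level does not check this label. In Cnot6l-/- eggs 3717 of the 7068 genes (52.6%) were lower at MII than at MI, and 4786 (67.7%) in the group labelled Btg4-/-, with 10 (0.141%) and 8 (0.113%) higher; among all genes tested 54.3% and 69.3% were lower and 0.23% and 0.11% higher. Of the 3203 genes lower in WT as deposited, 2495 (77.9%) were also lower in Cnot6l-/- eggs, which is 67.1% of the Cnot6l-/- list. For the group labelled Btg4-/- the shared genes numbered 2897, 90.4% of the WT list and 60.5% of its own. These steps share no libraries with the WT step, though all fits share 1 estimate of the spread. After scaling, 1701 (24.1%) of the 7068 genes were lower and 571 (8.08%) higher in Cnot6l-/-, against 26.8% and 6.41% of all genes tested. In the group labelled Btg4-/- 1877 (26.6%) were lower and 472 (6.68%) higher after scaling, against 30.6% and 5.31%.

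Some transcripts that fell in WT eggs were not called lower in either of the other genotypes. Cd9 had 217.34 and 173.56 FPKM in Cnot6l-/- MII eggs, against 218.42 and 196.58 FPKM in Cnot6l-/- MI oocytes, and the difference of this step from that of WT was 3.63 ± 0.69 on the log2 scale (limma, adjusted p = 0.00253). In the group labelled Btg4-/- Cd9 had 247.8 and 158.79 FPKM at MII, against 225.78 and 212.97 FPKM at MI (difference from WT 3.58 ± 0.69, adjusted p = 0.000882). The MII and MI libraries thus overlapped in both of these genotypes, whereas they were far apart in WT. Calm2 had 339.58 and 224.03 FPKM in Cnot6l-/- MII eggs, against 253.56 and 237.28 FPKM at MI (difference 4.48 ± 0.99, adjusted p = 0.00644). Its difference in the group labelled Btg4-/- was 4.25 ± 0.99 (adjusted p = 0.00389). Cox7c differed by 4.32 ± 0.71 (adjusted p = 0.00115) in Cnot6l-/- and by 4.22 ± 0.71 (adjusted p = 0.000324) in the group labelled Btg4-/-. All of these were also called after scaling. The WT libraries enter every such difference, so the values of the 2 genotypes are not independent of each other.

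Other transcripts fell in all 3 genotypes. Tle6 had 159.19 and 193.72 FPKM in Cnot6l-/- MII eggs, against 946.74 and 1056.11 FPKM in Cnot6l-/- MI oocytes (-2.50 ± 0.51, adjusted p = 0.000563). In the group labelled Btg4-/- it had 74.85 and 88.61 FPKM at MII, against 1265.32 and 1253.84 FPKM at MI (-3.93 ± 0.51, adjusted p = 3.94e-06). The steps of Tle6 were not shown to differ from that of WT in Cnot6l-/- (1.95 ± 0.73, adjusted p = 0.0851, or 0.0495 with the library number as a block) or in the group labelled Btg4-/- (0.52 ± 0.73, adjusted p = 0.658). Kpna2 took a course of its own: it had 257.6 and 171.61 FPKM in Cnot6l-/- MII eggs, against 469.54 and 433.68 FPKM at MI (difference from WT 3.14 ± 0.70, adjusted p = 0.00681). Kpna2 in the group labelled Btg4-/- had 56.02 and 36.89 FPKM at MII, against 514.63 and 561.9 FPKM at MI (difference from WT 0.70 ± 0.70, adjusted p = 0.517).

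**Figure D5:**
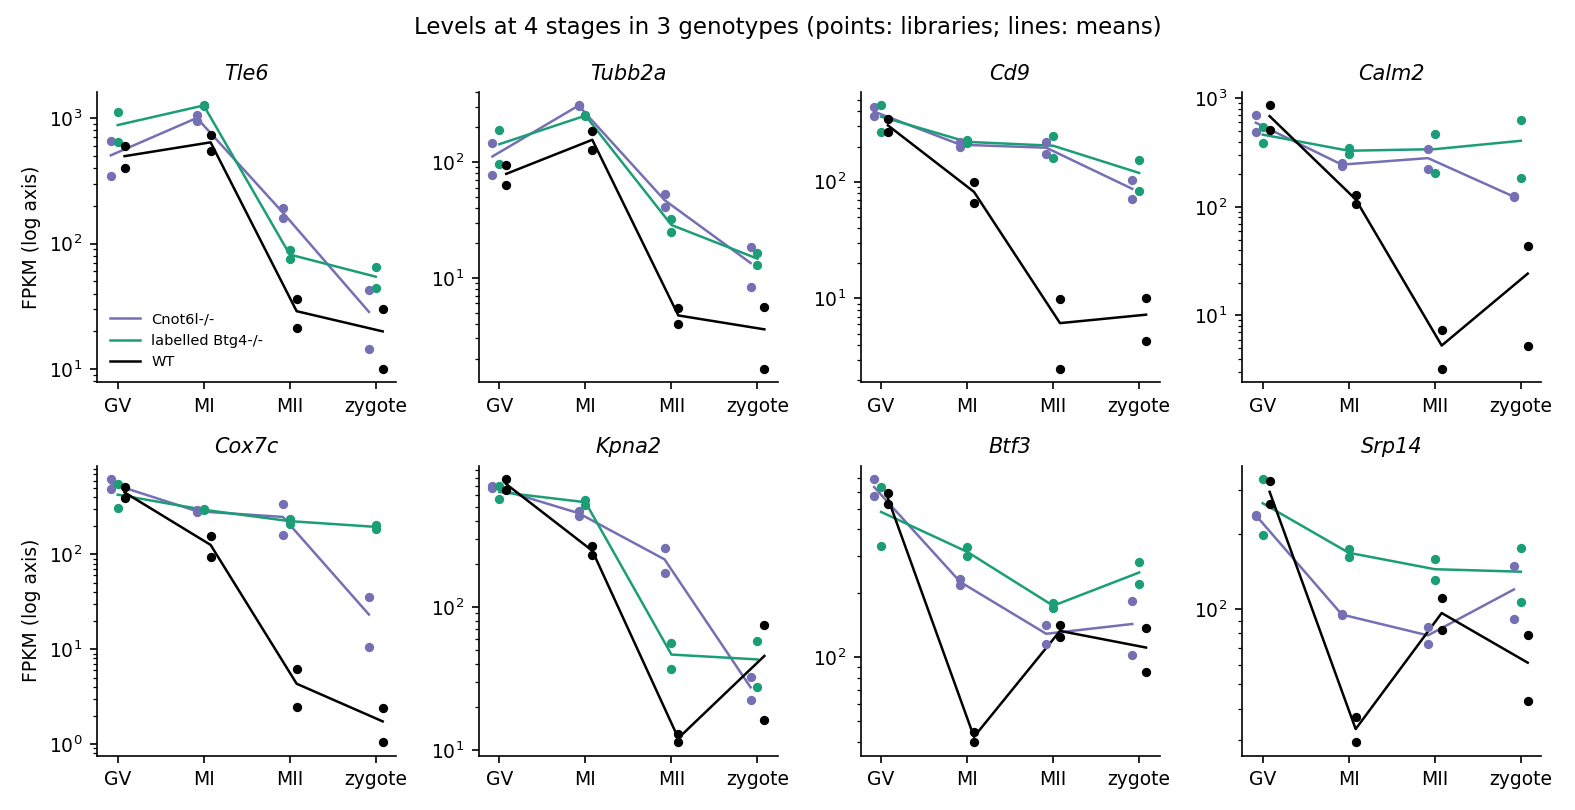
FPKM on log axes of 8 genes at GV, MI, MII and zygote in Cnot6l-/-, the group labelled Btg4-/- and WT; points are libraries and lines join group means. Cd9, Calm2 and Cox7c stay high at MII in both other genotypes and fall in WT, Tle6 and Tubb2a fall in all 3, and Btf3 and Srp14 are lowest at MI in WT.

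In the other direction, some transcripts had a lower step than in WT. Btf3, which was higher in WT MII eggs, had 115.82 and 141.75 FPKM in Cnot6l-/- MII eggs, against 233.16 and 218.63 FPKM at MI (difference from WT -2.44 ± 0.48, adjusted p = 0.00314), and this step itself was not called in Cnot6l-/- (adjusted p = 0.0511). Farsa, a phenylalanyl-tRNA synthetase subunit, had 4.1 and 3.24 FPKM in Cnot6l-/- MII eggs, against 24.13 and 26.63 FPKM at MI, while WT had 2.95 and 2.14 FPKM at MII, against 2.08 and 1.78 FPKM at MI (difference -2.77 ± 0.32, adjusted p = 0.000254). Rpl24 had 3 and 1.56 FPKM at MII in the group labelled Btg4-/-, against 93.74 and 115.81 FPKM at MI (difference from WT -4.13 ± 0.48, adjusted p = 1.52e-05). WT had 2.05 and 1.27 FPKM of Rpl24 at MII, against 4.4 and 3.54 FPKM at MI, and its GV libraries held 225.0 and 286.2 FPKM.

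In all, 259 of the 7068 genes (3.66%, against 2.44% of all genes tested) had a higher step in Cnot6l-/- than in WT and 516 (7.3%, against 12.2%) a lower one. For the group labelled Btg4-/- 142 (2.01%, against 1.34%) had a higher and 1330 (18.8%, against 26%) a lower one. Scaling turned this balance for Cnot6l-/-, with 542 higher (7.67%, against 5.71% of all genes tested) and 232 lower (3.28%, against 4.46%). It moved the balance to 528 higher (7.47%, against 5.58%) and 476 lower (6.73%, against 9.25%) in the group labelled Btg4-/-; 243 and 140 genes were higher and 191 and 474 lower in both settings. Of 78 oxidative phosphorylation genes 17 had a higher and 1 a lower step in Cnot6l-/-, and 25 and 1 after scaling. The same list had 5 higher and 17 lower steps in the group labelled Btg4-/-, and 17 and 8 after scaling. Of 84 cytosolic ribosomal protein genes 10 had a higher and 5 a lower step in Cnot6l-/-, and 12 and 2 after scaling. In the group labelled Btg4-/- 39 of these 84 genes had a lower step than in WT and 1 a higher one, and 21 and 4 after scaling. Mitochondrial ribosomal proteins had a lower step in 37 of 69 cases and a higher one in 3 there, and 14 and 5 after scaling, whereas Cnot6l-/- had 6 lower and 7 higher, and 4 and 13 after scaling.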

How the data were processed

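RNA of WT MII eggs and WT MI oocytes was compared, with the same stages of Cnot6l-/- and of the group labelled Btg4-/- for the difference of the step. Per the submitters' processing notes, CASAVA 1.8, TopHat2 2.0.11, Bowtie2 2.1.0, Cufflinks 2.2.1 and mm9 were used. The authors deposited FPKM for 23235 genes in 24 libraries; their scaling across libraries is not described in the labels. Read depth is unknown, so no counting interval is given. MI columns are numbered 2 and 3 but the sample titles 1 and 2, so each was placed in its group without a sample; "first" and "second" follow the columns.

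With limma 3.58.1 (R 4.3.3), log2(FPKM + 1) was modelled with 1 mean for each of 12 groups, a trend and 12 residual degrees of freedom. All tests were two-sided, with Benjamini-Hochberg adjustment over 10884 genes. A pseudocount of 1 understates changes of low genes. The fit was tested on simulated data. The alternatives tried were median-ratio scaling, a pseudocount of 0.1, omission of the filter, fits on 4 or 8 libraries, the library number as a block and each WT library left out.

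The genes, the 26 gene lists and the rule for naming genes were chosen with earlier results of these data known. Named are the 12 highest and 12 lowest changes among genes called, of 10 FPKM or more in the group with more, without overlapping libraries and with a symbol other than that of a predicted locus, a RIKEN clone or a small RNA, the 12 highest after scaling, the 2 highest and 2 lowest of each list, the 6 highest and 6 lowest differences of the step, Cnot6l, Btg4 and 4 small RNA genes; the text gives a subset, and Zp1, Zp2, Cd9, Kpna2, Tle6, Btf3 and Pgs1 were followed across genotypes and stages after their values were seen. Lists of under 10 genes at 1 FPKM are given by count only. Tables were handled in Python 3.11.15 (pandas 2.3.3, numpy 2.4.6) and plotted with matplotlib 3.10.9.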

Additional observations from a re-analysis of the deposited data

Results flagged for a closer look

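The step between MI and MII differed between genotypes by limma's test of the difference itself, and these differences are given as values without an explanation. In Cnot6l-/- against WT, 259 genes had a higher and 516 a lower step, and the named genes differed by 4.48 (Calm2), 4.32 (Cox7c), 4.23 (Ube2t), 4.20 (Hmgb2), 3.63 (Cd9), 3.14 (Kpna2), -2.44 (Btf3), -2.77 (Farsa) and -3.21 (Tor1a) on the log2 scale. In the group labelled Btg4-/- against WT, 142 genes had a higher and 1330 a lower step, and the named genes differed by 4.93 (Spink2), 4.25 (Calm2), 4.22 (Cox7c), 4.02 (Paip2), 3.58 (Cd9), -2.47 (Btf3), -4.03 (Rpl3), -4.06 (Vamp8) and -4.13 (Rpl24). The difference of Hmgb2 was not called without the second WT MII library (3.62, adjusted p = 0.0697). Spink2, a serine protease inhibitor, had 3.3 and 2.89 FPKM at MII in the group labelled Btg4-/-, against 0.45 and 1.22 FPKM at MI, while WT had 0.34 and 0.53 FPKM at MII, against 26.48 and 12.31 FPKM at MI.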

How the results depend on the processing

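Precision rests on 2 libraries a group. The number of genes called lower in MII eggs stayed within 1.5 times of 3203 in all settings except without the first MI library; it ranged from 1797 to 2933 over the fits that leave out 1 WT library. The 36 genes called higher became 508 after scaling, 92 with only the 4 libraries and 20 with only the 8 WT libraries, and ranged from 11 to 34 over the leave-one-out fits. With the library number as a block, 52 genes were called higher and 3792 lower; the number 2 stands on 1 MI and 1 MII column, but the MI titles are numbered otherwise than the columns, so MI numbers were a block of their own and no MI library was paired with an MII library. The step differed from WT in 775 genes in Cnot6l-/- (379 with a pseudocount of 0.1, 365 to 509 leave-one-out) and in 1472 in the group labelled Btg4-/- (864 with a pseudocount of 0.1, 968 to 1340 leave-one-out). Over all genes tested the higher share of calls was 1.03%, and 18.3% after scaling. The ratio of summed FPKM ranged from 0.539 to 0.734 leave-one-out. Of 63 named genes called, 57 kept the call after scaling and none changed direction. Of 27 named genes not called as deposited, 18 gained a call after scaling. Btg4 was among these, as it turned to 0.67 and was called. Fits with 1 library in a group assume that it varies like the other groups. The cause of these shifts was not tested.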

Other observations

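Cdc5l was near 0 in Cnot6l-/- oocytes at every stage, including the one before the step described above. Its level was 0.64 and 1.34 FPKM at GV and 0.97 and 0.75 FPKM at MI. At MII it was 0.31 and 0.11 FPKM, and zygotes had 0.45 and 0.08 FPKM. WT oocytes had 43.54 and 40.93 FPKM at GV and 5.08 and 3.26 FPKM at MI, WT MII eggs 9.76 and 16.79 FPKM and WT zygotes 15.72 and 8.42 FPKM, and the libraries labelled Btg4-/- were between 12.26 and 48.7 FPKM. Fam54a had 1.3 to 9.06 FPKM over the 8 Cnot6l-/- libraries, against 80.33 to 88.01 FPKM at GV in WT, but WT MI oocytes, at 4.74 and 2.81 FPKM, lay within that range. Both genes were noticed after their values were seen. They lie on chromosomes 17 and 10 and Cnot6l on chromosome 5, and the cause of their low levels was not tested.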
